A study of Mus musculus with 11 samples.

Results

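Interleukin-1 (IL-1) family cytokines, their antagonist and their receptors are described here in mouse liver cancer cell lines, as 10 genes taken by name from 36528 gene IDs. They are the ligands Il1a, Il1b, Il33 and Il18, the antagonist Il1rn, and the receptor genes Il1r1, Il1rap, Il1rl1, Il1rl2 and Il1r2. All 10 were found by Entrez ID, and 8 passed a filter on low counts; Il1b and Il1r2 did not and are given by their counts. PolyA RNA of 11 libraries was sequenced, in 3 groups named for a mutant of the Hippo pathway coactivators YAP or TAZ: YAP-S127A (3 libraries), YAP-5SA (3 libraries, spelled YAP-S5A in the labels) and TAZ-S89A (5 libraries). In each mutant, alanine takes the place of serine at a site or sites through which Hippo kinases restrain the protein. All groups carry such a mutant, and no group without one was analysed here. The labels give neither strain nor treatment, nor the way the mutant was introduced. Whether replicate libraries stem from different tumours, lines or cultures is not labelled, so the spread behind each p-value is that between libraries and may be technical. The mutant and the identity of the cell line cannot be told apart.

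IL-1 alpha and IL-1 beta signal through a receptor made of IL1R1 and the shared accessory chain IL-1RAP, while IL-1Ra, the product of Il1rn, occupies IL1R1 without signalling and IL1R2 is a decoy. IL-33 uses ST2 (gene Il1rl1) and IL-36 cytokines use IL1RL2, each with the same accessory chain, and IL-18 has a receptor pair of its own. Signalling runs through MyD88 and IRAK kinases to NF-kB, and in liver the family is known for its part in acute-phase responses, in sterile injury and in inflammation around tumours.

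Library totals ran from 20071144 to 49159713 counts. The tissue label is liver, but the 8 hepatocyte markers listed (among them Alb, Ttr and Serpina1a) summed to at most 1.72 CPM (counts per 1e6 counts of the library) in any library, and Serpina1a had no count. Spread between libraries beyond counting error was widest in TAZ-S89A, at 0.247 as a fraction of the level, followed by YAP-5SA at 0.174 and YAP-S127A at 0.0893. TAZ-S89A replicates 4 and 5 carry sample IDs from another number series than the other 9 libraries. Between those replicates and TAZ-S89A replicates 1 to 3, 25.6% of tested genes differed, a comparison added after the data were seen. TAZ-S89A replicates 1 and 2, and replicates 4 and 5, were far more alike than the other pairs of that group. The 5 libraries of TAZ-S89A may therefore hold fewer independent samples.

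The promoter windows of the genes with the widest differences are shown first, as the DNA in front of the starts that RefSeq lists for them (GRCm38.p6). Each is the 250 bases that end just before a start, written 5′ to 3′ along the gene. Capitals mark exact matches, on either strand, to GGAATG, a core recognised by the TEAD factors that YAP and TAZ bind, or to TGANTCA, an AP-1 element. Il33 lies on the plus strand of chromosome 19, and its windows are chr19:29924863-29925112 and chr19:29945540-29945789. The Il1rl1 windows are chr1:40429320-40429569 and chr1:40439379-40439628, and the Il1rl2 window is chr1:40324339-40324588, all on the plus strand. For Il1rn, also on the plus strand, windows 1 and 3 are shown, chr2:24336610-24336859 and chr2:24345121-24345370. Its window 2, chr2:24345041-24345290, overlaps window 3, holds no match to either element and is not shown.
Il33, window 1: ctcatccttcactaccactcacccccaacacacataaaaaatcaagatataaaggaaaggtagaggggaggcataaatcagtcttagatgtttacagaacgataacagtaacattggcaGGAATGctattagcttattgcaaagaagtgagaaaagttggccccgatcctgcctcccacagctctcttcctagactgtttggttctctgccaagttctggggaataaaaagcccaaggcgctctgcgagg
Il33, window 2: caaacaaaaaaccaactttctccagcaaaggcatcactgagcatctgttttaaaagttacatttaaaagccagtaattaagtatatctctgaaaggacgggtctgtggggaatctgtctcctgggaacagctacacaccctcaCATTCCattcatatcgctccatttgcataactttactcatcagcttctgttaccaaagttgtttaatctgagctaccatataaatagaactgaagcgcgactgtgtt
Il1rl1, window 1: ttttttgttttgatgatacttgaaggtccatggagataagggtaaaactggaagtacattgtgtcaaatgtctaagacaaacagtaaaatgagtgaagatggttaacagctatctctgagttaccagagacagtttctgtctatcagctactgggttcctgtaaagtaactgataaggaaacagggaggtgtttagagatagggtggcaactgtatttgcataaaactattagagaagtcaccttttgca
Il1rl1, window 2: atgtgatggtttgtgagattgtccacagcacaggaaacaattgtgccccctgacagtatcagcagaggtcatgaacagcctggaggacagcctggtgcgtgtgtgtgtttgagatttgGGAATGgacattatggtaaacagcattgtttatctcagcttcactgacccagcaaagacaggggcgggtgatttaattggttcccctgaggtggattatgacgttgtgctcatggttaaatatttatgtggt
Il1rl2: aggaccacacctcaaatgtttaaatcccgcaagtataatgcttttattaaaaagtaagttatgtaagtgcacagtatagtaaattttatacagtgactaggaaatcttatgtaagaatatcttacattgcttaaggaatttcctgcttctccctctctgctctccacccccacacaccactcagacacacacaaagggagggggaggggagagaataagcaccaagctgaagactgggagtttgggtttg
Il1rn, window 1: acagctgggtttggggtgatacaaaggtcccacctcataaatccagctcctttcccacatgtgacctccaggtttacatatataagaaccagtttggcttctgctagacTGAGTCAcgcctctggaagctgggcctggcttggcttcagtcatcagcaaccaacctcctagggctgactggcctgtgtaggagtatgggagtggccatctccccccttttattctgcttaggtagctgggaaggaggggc
Il1rn, window 3: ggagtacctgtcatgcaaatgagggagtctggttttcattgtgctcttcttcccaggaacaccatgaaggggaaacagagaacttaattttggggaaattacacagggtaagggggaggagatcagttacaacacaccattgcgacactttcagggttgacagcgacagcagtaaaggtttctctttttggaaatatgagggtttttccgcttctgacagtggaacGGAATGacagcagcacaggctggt

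The GGAATG core was found in 5 of the 15 windows that RefSeq gives for the 10 genes, against 12.6% of 32851 windows over all genes. Both Il33 windows hold it, the downstream one on the opposite strand, where it reads CATTCC. It was also found in window 2 of Il1rl1, in window 3 of Il1rn and at 2 places in window 2 of Il1r1. TGANTCA was found in 2 windows, those of Il1a and Il1rn window 1, against 6.75% of all windows. The NF-kB element, taken as GGG and CC with any 5 bases between them and not marked by capitals, was found in 4 windows, against 45.8% of all; in Il1r1 window 2 it overlaps a GGAATG core. Neither GGAATG nor TGANTCA was found in window 1 of Il1rl1, in window 2 of Il1rn or in the Il1rl2 window. The genes with a match differed in direction: Il33 was highest and Il1rl1 lowest in the same group. Counts per gene cannot tell which start was used, nor secreted from intracellular IL-1Ra or soluble from membrane-bound ST2.

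The groups had different members of the family at the top. YAP-5SA had the highest levels of the ligands Il33 and Il18 and the lowest of the receptors Il1r1 and Il1rl1. TAZ-S89A had the antagonist Il1rn at 33.3 times its level in YAP-5SA and 57.1 times that in YAP-S127A, the most Il1rap and the least Il33. YAP-S127A had nearly all of the Il1rl2 transcript and the most Il1r1. Differences between groups were tested with edgeR's quasi-likelihood test, with Benjamini-Hochberg adjustment over 18224 genes, and called at an adjusted p under 0.05. Of the 8 tested members, 5 were called between TAZ-S89A and YAP-S127A, where 57.6% of all tested genes were. Higher were 2 (background 27%) and lower 3 (background 30.6%). Between TAZ-S89A and YAP-5SA 6 of 8 were called (background 57.9%), 4 higher (26.9%) and 2 lower (31%). Between YAP-5SA and YAP-S127A 7 of 8 were called (background 55.2%), 4 higher (28.2%) and 3 lower (27%). Median log2 fold changes of the 8 were -0.07, 1.98 and 0.28, beside -0.03, -0.04 and 0.01 over all tested genes. The shares of members called, 62.5%, 75% and 87.5%, rest on 8 genes, and Il1rl2 passed the filter only through the group where it is high. The comparisons share groups, so they are not independent of one another.

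**Figure D1:**
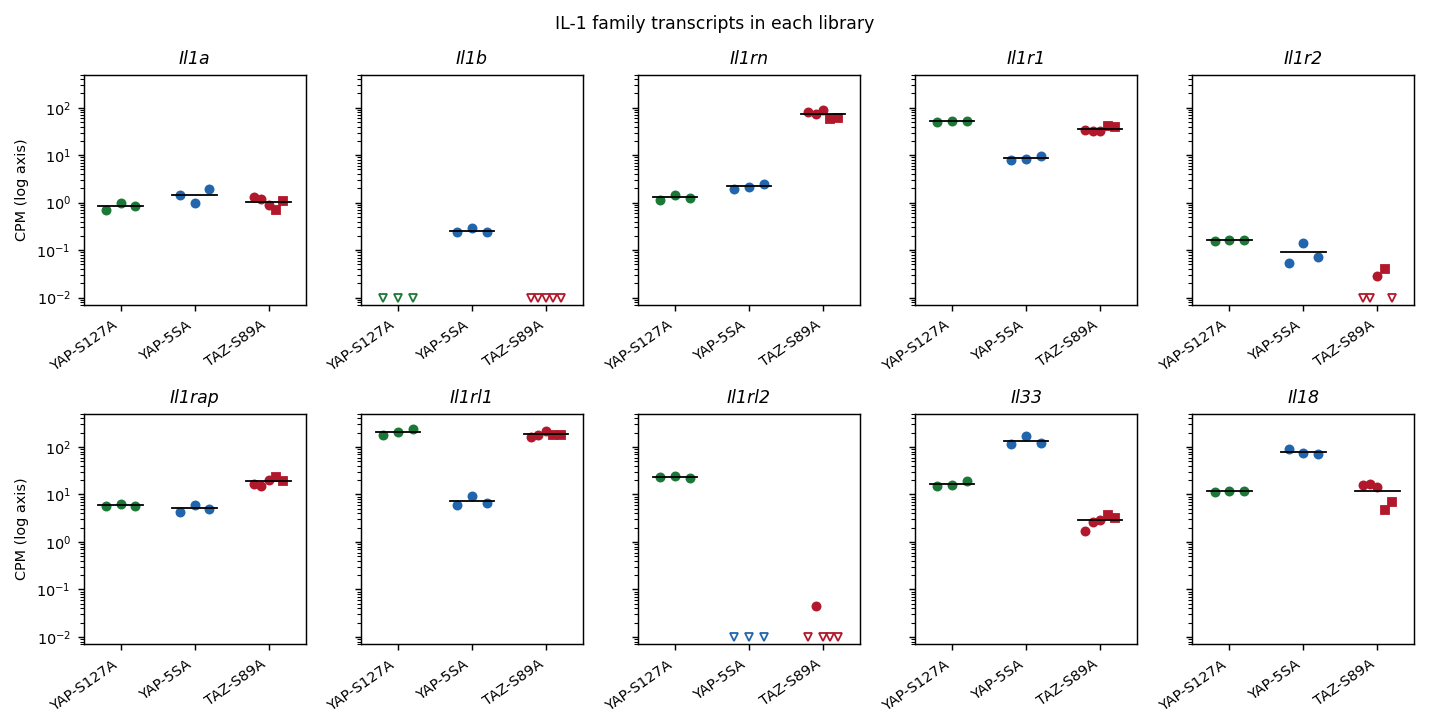
Level of each of the 10 genes in every library, in CPM on a log axis. Points are libraries, squares are TAZ-S89A replicates 4 and 5, open triangles at the foot are libraries with no count, and bars are means of groups without such libraries. Il1rn in TAZ-S89A lies between 58.7 and 90.2 CPM, while Il1rl2 has counts above 2 only in YAP-S127A.

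Ordered by level per transcript length, in the authors' normalised RPKM (nRPKM), Il1rl1 led in YAP-S127A at 23.0 ± 2.91 (SD, n = 3). Il1r1 followed at 7.59 ± 0.11, and then Il18, Il33 and Il1rl2 between 4.78 and 5.74, neighbours whose libraries overlapped. In YAP-5SA Il33 at 40.0 ± 8.69 and Il18 at 38.2 ± 4.30 led (n = 3), and their libraries overlapped. No other member there exceeded a mean of 1.25, that of Il1r1. In TAZ-S89A Il1rn at 21.3 ± 3.13 and Il1rl1 at 20.3 ± 2.11 led (n = 5) and overlapped, and Il18 at 5.74 ± 2.55 overlapped Il1r1 at 5.29 ± 0.87. Il1b and Il1r2 stayed under 0.11 nRPKM in every library.

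Among the ligands, Il33 encodes a nuclear cytokine of epithelial and stromal cells that is released when cells are damaged (chr19:29925113-29960718). Its levels were 118, 171 and 120.4 CPM in YAP-5SA, 15.2, 16.2 and 19.6 CPM in YAP-S127A, and 1.70, 2.67, 2.96, 3.67 and 3.21 CPM in TAZ-S89A. No library of any group overlapped those of another. Il33 was 8.02-fold higher in YAP-5SA than in YAP-S127A (SE 0.24 on the log2 scale, edgeR adjusted p = 1.38e-07). It was 48.6-fold lower in TAZ-S89A than in YAP-5SA (log2 fold change -5.60 ± 0.22 SE, edgeR adjusted p = 6.51e-11). Against YAP-S127A it was 6.05-fold lower in TAZ-S89A (log2 fold change -2.60 ± 0.21 SE, edgeR adjusted p = 1.22e-07).

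Il18 encodes a cytokine that is made as a precursor and cut by caspase-1 (chr9:50554700-50581841). Its levels were 88.7, 74.6 and 72.8 CPM in YAP-5SA and 11.4, 12.1 and 11.7 CPM in YAP-S127A. In TAZ-S89A replicates 1 to 3 it stood at 16.2, 17.0 and 14.4 CPM, and in replicates 4 and 5 at 4.81 and 7.01 CPM. The YAP-5SA libraries lay above all others, whereas the TAZ-S89A libraries fell on both sides of YAP-S127A. Il18 was 6.70-fold higher in YAP-5SA than in YAP-S127A (log2 fold change 2.74 ± 0.37 SE, edgeR adjusted p = 2.65e-05). It was 6.56-fold lower in TAZ-S89A than in YAP-5SA (log2 fold change -2.71 ± 0.31 SE, edgeR adjusted p = 4.13e-06). TAZ-S89A and YAP-S127A did not differ by the test (log2 fold change 0.03, 95% interval -0.65 to 0.72, edgeR adjusted p = 0.94). Without TAZ-S89A replicates 4 and 5 Il18 was higher in TAZ-S89A than in YAP-S127A (log2 fold change 0.42, edgeR adjusted p = 0.00886). Within TAZ-S89A, replicates 4 and 5 had a mean of 5.91 CPM against 15.9 CPM in replicates 1 to 3 (log2 fold change -1.43 ± 0.17 SE, edgeR adjusted p = 6.26e-05), also added after the data were seen. The same split was called for Il1rn (log2 fold change -0.45 ± 0.13 SE, edgeR adjusted p = 0.0216) and for no other tested member.

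Il1a, which encodes the cell-associated alarmin IL-1 alpha (chr2:129299609-129310186), was low in every library. It had 1.44, 1.004 and 1.96 CPM in YAP-5SA and 0.713, 0.984 and 0.833 CPM in YAP-S127A. In TAZ-S89A it had 1.34, 1.18, 0.899, 0.693 and 1.09 CPM, overlapping both YAP groups. It was called higher in YAP-5SA than in YAP-S127A (1.75-fold, log2 fold change 0.81 ± 0.30 SE, edgeR adjusted p = 0.036), and the lowest YAP-5SA library, at 1.004 CPM, lay just above the highest YAP-S127A library, at 0.984 CPM. Without YAP-5SA replicate 3 the difference was no longer called (log2 fold change 0.54, edgeR adjusted p = 0.171), nor without YAP-5SA replicate 1 or YAP-S127A replicate 1 or 3. TAZ-S89A did not differ by the test from YAP-S127A (95% interval of the log2 fold change -0.28 to 0.94) or from YAP-5SA (-1.04 to 0.09). Without YAP-5SA replicate 2, however, Il1a was called lower in TAZ-S89A than in YAP-5SA (log2 fold change -0.69, edgeR adjusted p = 0.0435). The gene overlaps Gm14023, whose means were 1.52 CPM in YAP-5SA, 0.969 in TAZ-S89A and 0.497 in YAP-S127A. The strand setting of the counting is not given, so Il1a is uncertain. The same holds in part for other members that overlap counted genes. Gm20319, which overlaps Il1rap, was also highest in TAZ-S89A, at 1.96 CPM against 0.777 in YAP-S127A and 0.469 in YAP-5SA. Bco2 and Tex12, which overlap Il18, did not exceed a mean of 0.601 CPM in any group. Gm16894, which overlaps Il1r2, had 7 counts in YAP-S127A, 10 in YAP-5SA and none in TAZ-S89A, beside 18, 11 and 2 counts of Il1r2, and Il1bos, which overlaps Il1b, had at most 5 counts in a group.

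Il1b, the secreted cytokine of activated myeloid cells (chr2:129364569-129371164), had 9, 12 and 10 counts in the YAP-5SA libraries and no count in the other 8. Its 0.256 ± 0.026 CPM in YAP-5SA (SD, n = 3) was at least 14.6-fold higher than TAZ-S89A and at least 9.54-fold higher than YAP-S127A. These bounds are set against 3 counts over the group, which cover counting error only. The 12 macrophage and leukocyte markers listed summed to 88.3 to 101 CPM in YAP-5SA, 24.9 to 29.4 CPM in YAP-S127A and 28.5 to 37.8 CPM in TAZ-S89A. The macrophage marker Adgre1 had no count in YAP-S127A and TAZ-S89A, the T cell marker Cd3e had none in YAP-S127A and Tyrobp had none in TAZ-S89A. In each group Cd14 was the highest of the 12. Of the 9 tested, 7 were higher in YAP-5SA than in YAP-S127A (28.2% of all tested genes were), among them Lyz2 (16.0 against 1.34 CPM). Laptm5, Itgam and Tyrobp, also among the 7, passed the filter only through YAP-5SA, where they are high. They had 187, 91 and 65 counts there, against 2, 1 and 3 in YAP-S127A. None of the 9 was called lower. Not every listed marker rose, however. The mean of the leukocyte marker Ptprc was larger for YAP-S127A, 0.330 CPM, than for YAP-5SA, 0.181 CPM. Fcer1g went the same way, with 0.878 against 0.747 CPM, and Cd79a was nearly level, with 0.155 against 0.152 CPM. The part of such cells in the Il1b, Il33 and Il18 levels was not tested. In bulk RNA, fewer cells of a type and less RNA per cell cannot be told apart.

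Il1rn, the gene of the receptor antagonist (chr2:24336860-24351491), showed the widest rise in TAZ-S89A. Its levels there were 81.3, 74.5, 90.2, 58.7 and 61.6 CPM. In YAP-5SA they were 1.95, 2.15 and 2.49 CPM and in YAP-S127A 1.11, 1.48 and 1.28 CPM. No groups overlapped. Il1rn was 57.1-fold higher in TAZ-S89A than in YAP-S127A (log2 fold change 5.84 ± 0.21 SE, edgeR adjusted p = 4.19e-11) and 33.3-fold higher than in YAP-5SA (log2 fold change 5.06 ± 0.20 SE, edgeR adjusted p = 7.71e-11). It was also 1.72-fold higher in YAP-5SA than in YAP-S127A (log2 fold change 0.78 ± 0.21 SE, edgeR adjusted p = 0.00592). As a ratio of nRPKM within a library, Il1rn stood at 91.1 to 161 times Il1a in TAZ-S89A, at 2.04 to 3.44 times in YAP-5SA and at 2.41 to 2.51 times in YAP-S127A. Il1a had only 17 to 57 counts in a TAZ-S89A library and overlaps Gm14023, so these ratios are uncertain.

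Il1r1, the signalling receptor of IL-1 alpha and beta (chr1:40222480-40316201), was lowest in YAP-5SA. Its libraries there had 7.83, 8.17 and 9.68 CPM, against 50.5, 51.7 and 52.9 CPM in YAP-S127A and 33.7, 32.3, 32.0, 42.1 and 38.9 CPM in TAZ-S89A. The 3 groups did not overlap. Il1r1 was 6.03-fold lower in YAP-5SA than in YAP-S127A (log2 fold change -2.59 ± 0.15 SE, edgeR adjusted p = 6.07e-09) and 4.18-fold higher in TAZ-S89A than in YAP-5SA (log2 fold change 2.06 ± 0.14 SE, edgeR adjusted p = 1.67e-08). The step from YAP-S127A to TAZ-S89A was smaller, 1.44-fold lower (log2 fold change -0.53 ± 0.12 SE, edgeR adjusted p = 0.0022).

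Il1rap, the accessory chain shared by the IL-1, IL-33 and IL-36 receptors (chr16:26581509-26730128), was highest in TAZ-S89A. It had 17.0, 15.1, 20.6, 23.0 and 19.4 CPM there, 4.38, 5.93 and 4.94 CPM in YAP-5SA, and 5.70, 6.23 and 5.75 CPM in YAP-S127A. TAZ-S89A lay above both YAP groups, which overlapped each other. The difference was 3.22-fold against YAP-S127A (log2 fold change 1.69 ± 0.17 SE, edgeR adjusted p = 1.01e-06) and 3.73-fold against YAP-5SA (log2 fold change 1.90 ± 0.17 SE, edgeR adjusted p = 2.88e-07). The YAP groups did not differ by the test (95% interval of the log2 fold change -0.59 to 0.17, edgeR adjusted p = 0.329). In nRPKM, Il1r1 stood at 15.6 to 17.3 times Il1rap in YAP-S127A, at 2.60 to 3.70 times in YAP-5SA and at 2.93 to 4.03 times in TAZ-S89A.

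Il1rl1, which encodes the IL-33 receptor ST2 (chr1:40404864-40465418), was abundant in YAP-S127A and TAZ-S89A and low in YAP-5SA. Its levels were 179, 211 and 235 CPM in YAP-S127A and 166, 182, 219.8, 177 and 175 CPM in TAZ-S89A, which overlapped. YAP-5SA had 5.88, 9.32 and 6.46 CPM. Il1rl1 was 28.8-fold lower in YAP-5SA than in YAP-S127A (log2 fold change -4.85 ± 0.23 SE, edgeR adjusted p = 1.01e-09) and 25.5-fold higher in TAZ-S89A than in YAP-5SA (log2 fold change 4.67 ± 0.22 SE, edgeR adjusted p = 4.4e-10). TAZ-S89A and YAP-S127A did not differ by the test (log2 fold change -0.18, 95% interval -0.55 to 0.20, edgeR adjusted p = 0.402). Mast cells are known to carry ST2, and the 6 mast cell markers listed had no count in YAP-S127A and summed to 0.0408 to 0.165 CPM in TAZ-S89A and to 0.218 to 0.481 CPM in YAP-5SA, where Kit had no count. The part of mast cells in the Il1rl1 level was not tested. The summed level of 6 listed stellate cell markers was also lowest in YAP-5SA, at 1.28 to 1.98 CPM against 438 to 493 CPM in YAP-S127A and 232 to 316 CPM in TAZ-S89A. Nearly all of the sum in YAP-S127A and TAZ-S89A was Pdgfrb, at means of 474 and 268 CPM. Other markers of the list had other orders: Reln was highest in TAZ-S89A at 1.67 CPM, Des in YAP-5SA at 0.342 CPM, and Lrat had 2 counts in YAP-5SA and none elsewhere. The part of such cells in the Il1rl1 level was not tested.

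**Figure D2:**
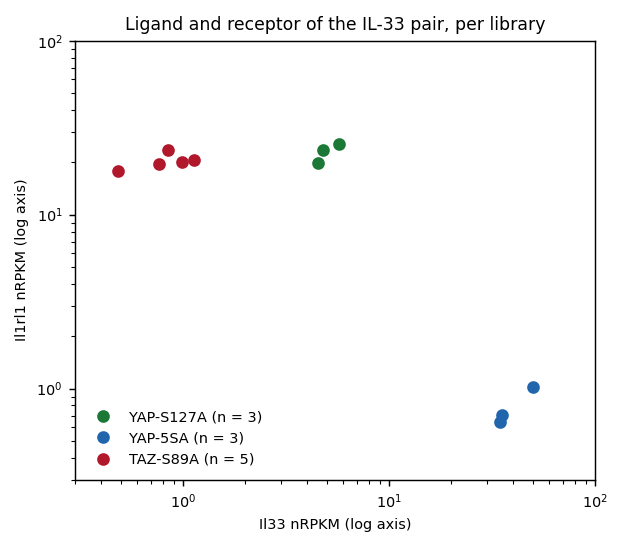
Il33 against Il1rl1 in each of the 11 libraries, both in nRPKM on log axes, coloured by group. YAP-5SA libraries sit at high Il33 and low Il1rl1, TAZ-S89A libraries at low Il33 and high Il1rl1, and YAP-S127A libraries at high Il1rl1 with Il33 between 4.52 and 5.71 nRPKM.

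Set against its receptor within a library, Il33 was the larger transcript in YAP-5SA alone among the 3 groups. Its nRPKM there was 49.0 to 53.5 times that of Il1rl1. In YAP-S127A Il1rl1 stood at 4.40 to 4.88 times Il33, and in TAZ-S89A at 18.1 to 36.7 times. The plot of Il33 against Il1rl1 shows the 3 groups as separate clusters.

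Il1rl2, which encodes the IL-36 receptor (chr1:40324589-40367555), was a YAP-S127A transcript in these libraries, at 23.2, 24.5 and 22.4 CPM. It had no count in YAP-5SA, which allows up to 0.0249 CPM over the group, and 2 counts in TAZ-S89A, both in replicate 2. It was at least 936-fold lower in YAP-5SA than in YAP-S127A. The ratio of pooled counts was 1982-fold lower in TAZ-S89A than in YAP-S127A (95% counting interval 548 to 16374). Il1rl2 passed the filter only through YAP-S127A, where it is high, so no p-value is given for it. Of the IL-36 ligand genes Il1f6, Il1f8 and Il1f9, only Il1f9 (IL-36 gamma) passed the filter, and it was highest in YAP-5SA, at 1.12, 1.94 and 0.944 CPM. It did not exceed 0.209 CPM in TAZ-S89A or 0.131 CPM in YAP-S127A. Il1f9 was higher in YAP-5SA than in YAP-S127A (log2 fold change 4.52 ± 0.59 SE), and it passed the filter only through YAP-5SA. The summed level of 6 listed endothelial markers was highest in YAP-S127A, as Il1rl2 was, at 8.56 to 11.1 CPM against 0.884 to 1.21 CPM in YAP-5SA and 0.165 to 0.530 CPM in TAZ-S89A. Emcn carried most of the sum in YAP-S127A, at a mean of 7.61 CPM, and had no count in TAZ-S89A. The defining markers Pecam1 and Cdh5, and Vwf, had their highest means in YAP-5SA, none above 0.360 CPM. Their part in the Il1rl2 level was not tested.

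The decoy receptor gene Il1r2 (chr1:40084692-40125230) was near the limit of detection everywhere. It had 7, 5 and 6 counts in YAP-S127A, 2, 6 and 3 counts in YAP-5SA, and 1 count each in TAZ-S89A replicates 3 and 4. YAP-S127A had 13.8 times (95% counting interval 3.29 to 122) and YAP-5SA 7.77 times (1.69 to 72.1) the pooled level of TAZ-S89A.

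**Figure D3:**
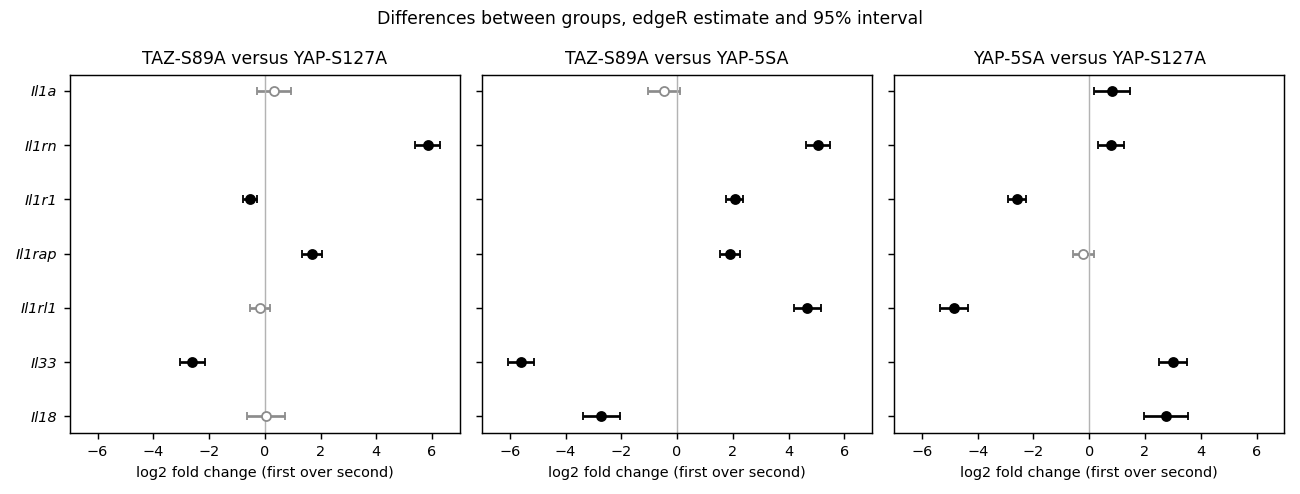
Log2 fold changes of 7 genes in the 3 comparisons (first group over second, edgeR estimate with its 95% interval). Filled points were called at an adjusted p under 0.05, open grey points were not. Il33 and Il1rl1 lie on opposite sides of 0 in both comparisons with YAP-5SA, while Il1rn lies above 0 in all 3.

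Il1r2, Il1r1, Il1rl2, Il1rl1, Il18r1 and Il18rap lie next to one another on chromosome 1, but did not share one order of the groups. Il1r1 and Il1rl1 were lowest in YAP-5SA and Il1r2 in TAZ-S89A, while Il1rl2 was at or under the limit of 3 counts in both. Il18r1, the ligand-binding chain of the IL-18 receptor, was highest in YAP-5SA at a mean of 1.18 CPM, against 0.633 in TAZ-S89A and 0.147 in YAP-S127A. Il18rap, its signalling chain, was highest in TAZ-S89A at 67.4 CPM, against 33.1 in YAP-S127A and 22.0 in YAP-5SA. Both were called in all 3 comparisons, with TAZ-S89A over YAP-5SA at a log2 fold change of -0.87 ± 0.27 SE for Il18r1 (edgeR adjusted p = 0.0134) and 1.62 ± 0.12 SE for Il18rap (edgeR adjusted p = 4.29e-08). For Il18r1 libraries of those 2 groups overlapped.

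**Figure D4:**
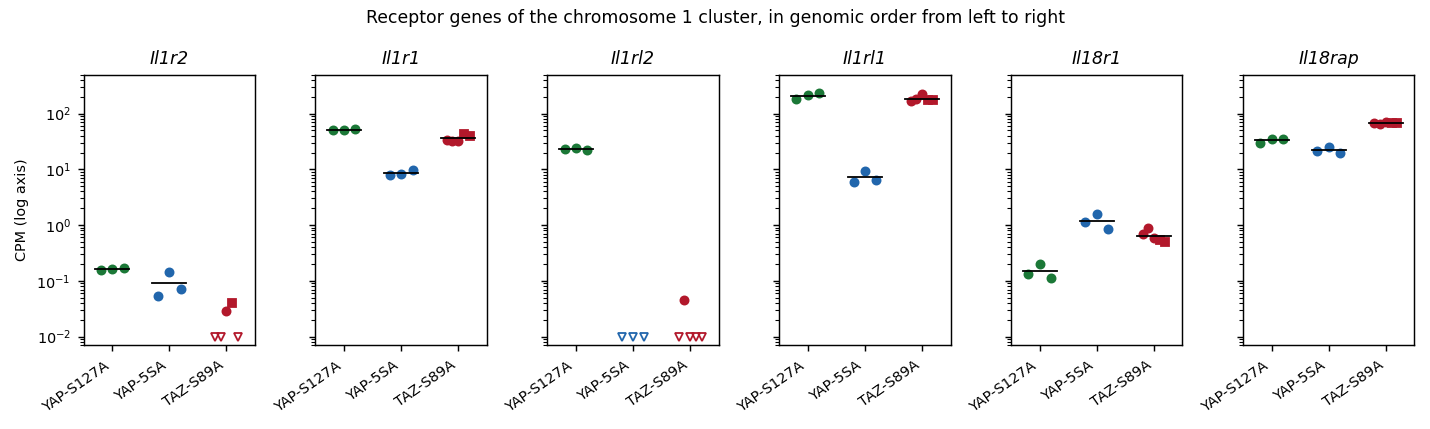
The 6 receptor genes of the chromosome 1 cluster in genomic order, in CPM per library on a log axis, with symbols as in the plot of levels by library. Il1rl2 has more than 2 counts in YAP-S127A alone, whereas its neighbours Il1r1 and Il1rl1 are lowest in YAP-5SA.

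Beside the background of 57.6%, 57.9% and 55.2% of all tested genes called (TAZ-S89A versus YAP-S127A, TAZ-S89A versus YAP-5SA and YAP-5SA versus YAP-S127A), the other lists are given by their counts and medians in the same order of comparisons. Of 11 further family genes listed, 5 passed the filter: Il18r1, Il18rap, Il18bp, Sigirr and Il1f9. Between TAZ-S89A and YAP-S127A 3 were higher and none lower, between TAZ-S89A and YAP-5SA 1 was higher and 3 lower, and between YAP-5SA and YAP-S127A 3 were higher and 2 lower. These are 60%, 80% and 100% of 5 genes, the first near the background. Il1f9, counted in these shares, passed the filter only through YAP-5SA, where it is high. Sigirr, an inhibitory receptor of the family, had a mean of 38.7 CPM in YAP-5SA, 10.2 in TAZ-S89A and 6.45 in YAP-S127A. It was higher in YAP-5SA than in YAP-S127A (log2 fold change 2.58 ± 0.22 SE, edgeR adjusted p = 3.09e-07). Il18bp, the soluble inhibitor of IL-18, was lower in YAP-5SA than in YAP-S127A (log2 fold change -0.72 ± 0.20 SE, edgeR adjusted p = 0.00825).

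The 19 genes listed for signalling just below the receptors were all tested. TAZ-S89A had 8 higher and 4 lower than YAP-S127A, and 3 higher and 7 lower than YAP-5SA; YAP-5SA had 8 higher and 2 lower than YAP-S127A. The shares called, 63.2%, 52.6% and 52.6%, are near the background. Their median log2 fold changes were 0.23, -0.15 and 0.27, beside -0.03, -0.04 and 0.01 over all tested genes. Irak3, an IRAK family member that restrains the pathway, had the widest range. It stood at 22.2, 20.5 and 18.1 CPM in YAP-S127A, at 2.32, 1.74 and 2.42 CPM in YAP-5SA, and did not exceed 0.122 CPM in TAZ-S89A. Irak3 was lower in TAZ-S89A than in YAP-S127A (log2 fold change -8.22 ± 0.24 SE, edgeR adjusted p = 6.08e-12). Irak4, the kinase that starts the cascade, was higher in YAP-5SA than in YAP-S127A, at means of 28.9 and 9.92 CPM (log2 fold change 1.54 ± 0.17 SE, edgeR adjusted p = 3.71e-06). Irak2 was lower in TAZ-S89A than in either YAP group, at a mean of 29.8 CPM against 67.0 in YAP-S127A (log2 fold change -1.17 ± 0.23 SE, edgeR adjusted p = 0.000597) and 76.8 in YAP-5SA (log2 fold change -1.36 ± 0.23 SE, edgeR adjusted p = 0.000148).

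Of 18 genes listed for inflammasomes and for processing or release of the cytokines, 14 were tested. TAZ-S89A had 5 higher and 6 lower than YAP-S127A, and 1 higher and 9 lower than YAP-5SA; YAP-5SA had 6 higher and 3 lower than YAP-S127A. The shares called were 78.6%, 71.4% and 64.3%. Over all tested genes 27%, 26.9% and 28.2% were higher and 30.6%, 31% and 27% lower. Medians were -0.37, -0.91 and 0.22, beside -0.03, -0.04 and 0.01 over all tested genes. Casp1, whose product cuts the IL-1 beta and IL-18 precursors, had 15, 17 and 21 counts in the YAP-5SA libraries, 3, 1 and 5 counts in those of YAP-S127A, and none in TAZ-S89A. It was at least 24.9-fold lower in TAZ-S89A than in YAP-5SA, and it passed the filter only through YAP-5SA, where it is high. Pycard, the adaptor that recruits caspase-1, was highest in YAP-S127A, at a mean of 3.04 CPM against 0.528 in YAP-5SA and 0.169 in TAZ-S89A. S100a13, a carrier in the export of IL-1 alpha, was highest in YAP-5SA at 211 CPM, against 65.8 in TAZ-S89A and 27.1 in YAP-S127A. P2rx7, the ATP-gated channel upstream of the NLRP3 inflammasome, was higher in YAP-S127A at 14.5 CPM than in YAP-5SA at 1.19 CPM (YAP-5SA over YAP-S127A, log2 fold change -3.61 ± 0.24 SE, edgeR adjusted p = 2.37e-08).

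The 26 genes listed as responding to IL-1 in many cell types were all tested. TAZ-S89A had 14 higher and 8 lower than YAP-S127A, and 8 higher and 14 lower than YAP-5SA; YAP-5SA had 18 higher and 3 lower than YAP-S127A. The shares called were 84.6%, 84.6% and 80.8%, against 57.6%, 57.9% and 55.2% of all tested genes. Counted in these shares, Lcn2 and Saa3 passed the filter only through TAZ-S89A and Nos2 only through YAP-5SA, where each is high. The medians were 0.61, -0.68 and 1.51, beside -0.03, -0.04 and 0.01 over all tested genes. The genes with the widest differences went in different directions. Ptges, which makes prostaglandin E2, had 216, 255 and 198 CPM in YAP-5SA, against 20.0, 22.6 and 25.4 CPM in YAP-S127A. No TAZ-S89A library exceeded 0.918 CPM. Ptges was lower in TAZ-S89A than in YAP-5SA by a log2 fold change of -8.85 ± 0.27 SE (edgeR adjusted p = 7.28e-12). Il6 was high in YAP-S127A, at a mean of 20.7 CPM against 0.887 in TAZ-S89A and 0.284 in YAP-5SA (YAP-5SA over YAP-S127A, log2 fold change -6.18 ± 0.34 SE, edgeR adjusted p = 3.53e-09). The neutrophil chemokine gene Cxcl5 was highest in TAZ-S89A, at a mean of 162 CPM against 23.4 in YAP-5SA and 3.88 in YAP-S127A (TAZ-S89A over YAP-S127A, log2 fold change 5.38 ± 0.15 SE, edgeR adjusted p = 3.08e-12). The collagenase gene Mmp13 and Csf2, which encodes GM-CSF, were highest in YAP-5SA, at means of 22.6 and 11.6 CPM, and under 1 CPM in the other groups. Lcn2, an iron-binding acute-phase gene, had 1.79 to 2.52 CPM in TAZ-S89A, 4 counts in all in YAP-5SA and 1 in YAP-S127A. Nfkbia, the NF-kB inhibitor gene, chosen after its values were seen, was highest in YAP-5SA at 65.9 CPM, against 33.5 in TAZ-S89A and 13.02 in YAP-S127A.

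**Figure D5:**
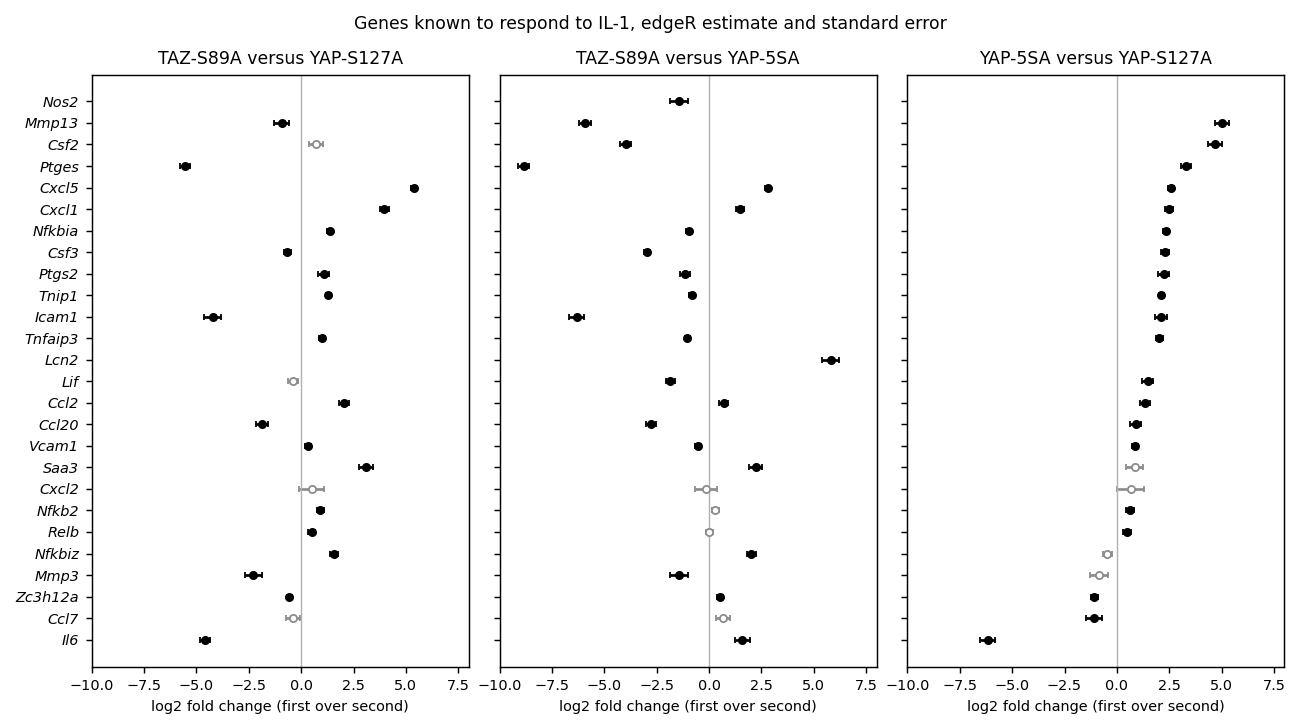
Log2 fold changes of the 26 listed IL-1 response genes in the 3 comparisons (first group over second, edgeR estimate with its standard error). Filled points were called, open grey points were not, and points of Lcn2 and Nos2 are left out where a group had 1 to 3 counts. Ptges lies furthest below 0 in both comparisons of TAZ-S89A, and most points of YAP-5SA versus YAP-S127A lie above 0.

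The genes whose levels were most like each member were named by Pearson's r of log2 CPM over the 11 libraries, among 11770 genes. Since the libraries fall into 3 groups, a high r mainly says that a gene had the same order and spacing of groups. Il33 was most like Efemp1 (r = 0.9958), Krt19 (r = 0.9957) and Chchd10 (r = 0.9953). Krt19, a biliary keratin, had means of 1371 CPM in YAP-5SA, 55.9 in YAP-S127A and 7.38 in TAZ-S89A. The sums of the 6 biliary markers listed were 2719 to 4271 CPM in YAP-5SA, 466 to 590 CPM in YAP-S127A and 1758 to 3662 CPM in TAZ-S89A, where Spp1 led. The 7 keratinocyte-like markers, in the order of the same groups, summed to 27.8 to 32.7, 15.3 to 18.4 and 22.3 to 37.1 CPM. The sums did not follow the order of Il33, being carried in TAZ-S89A by Spp1 and Krt10, but single markers did. Krt7 had means of 1743 CPM in YAP-5SA, 102 in YAP-S127A and 1.41 in TAZ-S89A. Krt5 had 1.45 CPM in YAP-5SA, 4 counts in all in YAP-S127A and none in TAZ-S89A, and Krt6a had 11.1 CPM in YAP-5SA and no count elsewhere. The part of such cells in the Il33 level was not tested.

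Il1rn was most like Brinp3 (r = 0.9975), Gdnf (r = 0.9964) and Fam135b (r = 0.9949). Gdnf, which encodes a neurotrophic factor, had a mean of 61.3 CPM in TAZ-S89A, 2.61 in YAP-5SA and 2.05 in YAP-S127A. Il1rl1 was most like Efemp2 (r = 0.9954), Osgin2 and Filip1l, and Il1r1 like the connexin gene Gjc1 (r = 0.9994), the kinase gene Fyn and Adgrl2. Il1rl2 was most like Mnx1, Myot and Hmcn1, with r from 0.9996 to 0.9998. Mnx1, a homeobox gene, had a mean of 20.4 CPM in YAP-S127A, no count in YAP-5SA and 0.00917 CPM in TAZ-S89A. Il1rap was most like Cnpy4, Parp12 and Nek3, Il18 like Mxd4, Fbxw9 and Abcc3, and Il1a, with lower values of r up to 0.9229, like Scn2a, D11Wsu47e and Arhgef18.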

How the data were processed

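Gene counts and nRPKM of 11 polyA RNA libraries were used, each in the group its label names. Replicates were numbered in order of deposition. Reads were aligned with GSNAP to GRCm38, per the submitters' processing notes; the version, counting tool, annotation and strand setting were not given in the sources used here. The deposited count column gives reads aligning uniquely to an Entrez gene model, per the file headers. The deposited nRPKM is, per the file headers, an RPKM that the authors scaled by library size factors, and it was used only to compare levels between genes. Symbols, positions and promoter windows came from RefSeq (GRCm38.p6), which matched 31049 of 36528 IDs; the 5479 unmatched IDs held 2.91% of counts.

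Counts were tested with edgeR 4.0.16 in R 4.3.3 (filterByExpr by group, TMM scaling, robust quasi-likelihood fit of all 11 libraries with group as the only term). The filter kept 18224 genes. CPM are on the TMM scale. The fit was also run on simulated counts of independent libraries. That simulation holds neither the split nor the alike pairs within TAZ-S89A, so it cannot speak to them. Floors are 3 counts over a group, and ratios against 1 to 3 counts have 95% intervals, all for counting error only. All libraries of a group differed by more than sampling noise, but by unequal amounts. Chi-square per degree of freedom was 2.01 between TAZ-S89A replicates 4 and 5 and 5.6 between replicates 1 and 2. Between the other TAZ-S89A pairs it was 101 to 218. Summing replicate 1 with 2 and replicate 4 with 5 was among the alternatives. Alternatives were other scaling factors, DESeq2 1.42.0, limma-voom (limma 3.58.1), other filters, other sets of libraries, the ID series as a term, a fold threshold, and leaving out each library.

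The members and lists were chosen with earlier results of these data known. Named were all members, up to 4 called genes of each other list with the largest fold change per comparison, the 3 genes most like each tested member (average log2 CPM of at least 1), and some of the genes within 300 kb of a member. No rule was set in advance for the choice among the latter. Marker genes named singly, Nfkbia and Saa3 were chosen after their values were seen.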

Additional observations from a re-analysis of the deposited data

How the results depend on the processing

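Over 23 member results and 483 alternative values, 471 kept their direction and side of the threshold. The exceptions concern Il18 and Il1a. Il18 in TAZ-S89A against YAP-S127A, with no call at a log2 fold change of 0.03, became -0.070 with limma-voom and -0.10, -0.13 and -0.0047 without TAZ-S89A replicate 1, 2 or 3, none of them called, in a range of -0.13 to 0.25 over libraries left out in turn. It was called at 0.44 with the ID series as a term (edgeR adjusted p = 0.0125) and at 0.42 without its later part (edgeR adjusted p = 0.00886). Il1a in YAP-5SA against YAP-S127A lost its call with limma-voom (adjusted p = 0.0504) and without YAP-5SA replicate 1 (0.0674) or 3 (0.171), or YAP-S127A replicate 1 (0.13) or 3 (0.0841), by edgeR. Without YAP-5SA replicate 2 it was called in TAZ-S89A against YAP-5SA (0.0435).

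Calling only genes with a log2 fold change of 1 or more in size left 5873 genes between TAZ-S89A and YAP-S127A, 6164 between TAZ-S89A and YAP-5SA and 6269 between YAP-5SA and YAP-S127A, of 10505, 10545 and 10062. Leaving out 1 library at a time gave 9020 to 10920, 9451 to 11154 and 8778 to 10724 genes, and 5 to 5, 6 to 7 and 6 to 7 members. Without the low-count filter 6, 8 and 8 members were called. No paired analysis was possible because the labels give the groups no replicate numbers to pair. Il1b and Il1r2 are limited by depth, with at most 12 counts in a library.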

Other observations

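Genes within 300 kb of the members did not share one pattern with them, and only some of these genes are named here. Near Il1rn on chromosome 2, Pax8, a developmental transcription factor gene, had a mean of 4.95 CPM in TAZ-S89A, 0.619 in YAP-5SA and no count in YAP-S127A. It was at least 201-fold higher in TAZ-S89A than in YAP-S127A (edgeR adjusted p = 5.05e-07). The calcium channel gene Cacna1b was also highest in TAZ-S89A, at 14.9 CPM against 0.807 in YAP-5SA and 0.641 in YAP-S127A (TAZ-S89A over YAP-5SA, log2 fold change 4.21 ± 0.38 SE, edgeR adjusted p = 4.19e-07). Psd4, which lies between Il1rn and Pax8, was highest in YAP-5SA at 23.0 CPM, against 7.02 in TAZ-S89A and 1.74 in YAP-S127A.

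Near Il33 on chromosome 19, Ermp1 and the glycine decarboxylase gene Gldc were highest in YAP-5SA, as Il33 was. Gldc had 26.9 CPM there, 4.71 in TAZ-S89A and 2.58 in YAP-S127A (YAP-5SA over YAP-S127A, log2 fold change 3.38 ± 0.21 SE, edgeR adjusted p = 1.21e-08). Ermp1 had 75.4 CPM in YAP-5SA, 18.0 in YAP-S127A and 15.9 in TAZ-S89A. Uhrf2, which lies between Il33 and Gldc, was called in none of the 3 comparisons, at 138 to 157 CPM.

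Near Il18 on chromosome 9, the adjoining small heat shock protein genes Cryab and Hspb2 differed from each other in order. Cryab had 285 CPM in YAP-5SA, 67.2 in YAP-S127A and 16.0 in TAZ-S89A. Hspb2 was highest in YAP-S127A at 49.9 CPM, against 0.711 in TAZ-S89A and 1.97 in YAP-5SA (TAZ-S89A over YAP-S127A, log2 fold change -6.04 ± 0.25 SE, edgeR adjusted p = 1.09e-10). Cryab and Hspb2 overlap by position, so with the strand setting not given their counts are uncertain.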
